A study of Mus musculus with 21 samples.

Results

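The genes described here are the 33 listed genes of mitochondrial and peroxisomal fatty acid oxidation, taken by symbol from a table of 54532 genes and read in all 21 libraries. By compartment, 20 act in mitochondria, 6 in peroxisomes (Acox3, Ehhadh, Hsd17b4, Acaa1a, Scp2 and Abcd3) and 2 in both (Crat and Eci2). The remaining members are 3 acyl-CoA synthetases (Acsl1, Acsl4 and Acsl5) and 2 regulators (Pdk4 and Ppargc1b). All 33 were found, and all 33 passed the filter on low counts that left 22935 genes for testing. A mean of at least 10 CPM (the count of a gene scaled to the size of its library) was reached in some group by 28 of them, and 5 stayed below that in every group. The cells were sorted by flow cytometry from collagenase-digested adipose tissue of male C57BL/6 mice. Mice on a normal diet for 16 weeks are called lean, and mice on a high fat diet for 16 weeks are called obese. Each of 7 groups has 3 libraries. Macrophages low in MHC class II (MHCII-low), macrophages positive for MHC class II and negative for CD11c (CD11c-negative) and monocyte-derived cells were sorted from lean and from obese mice. Macrophages positive for MHC class II and for CD11c (CD11c-positive) were sorted from obese mice alone. The labels used here name neither the adipose depot, nor the other sorting gates, nor the number of animals behind a library. The labels do not call the replicates separate animals, so p-values measure the spread between these samples, which may be technical.

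In mitochondria, long-chain fatty acids are activated by acyl-CoA synthetases, carried inwards as carnitine esters, and shortened in repeated cycles of dehydrogenation, hydration, dehydrogenation and thiolysis whose electrons reach the respiratory chain. Peroxisomes run a parallel pathway with their own oxidases, multifunctional enzymes and thiolases, take very long-chain and branched substrates, and pass shortened products to mitochondria. In macrophages, fatty acid oxidation is known as part of the metabolism of alternatively activated and lipid-handling cells, and adipose tissue macrophages take up lipid released by adipocytes.

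Library totals ran from 11245851 to 35568948 counts. The sort labels were checked on their own transcripts: H2-Aa (MHC class II) averaged 322 CPM in lean and 393 CPM in obese MHCII-low macrophages, against 2060 to 3970 CPM in the other 5 groups. Itgax, which encodes CD11c, averaged 16.6 CPM in lean and 83.0 CPM in obese CD11c-negative macrophages, 559 CPM in CD11c-positive macrophages, and 327 and 350 CPM in lean and obese monocyte-derived cells. Monocyte-derived libraries stood apart in their summed macrophage markers (12 genes), at 2880 to 8830 CPM of the library total in lean and 4640 to 6550 CPM in obese mice, against 11100 to 16300 CPM in the 5 macrophage groups. Lean monocyte-derived libraries 1 to 3 had 73.6%, 82.5% and 67.1% of their counts in protein-coding genes, and the third is the lowest of all 21. Markers of other cell types also moved with diet. The summed adipocyte markers (13 genes) ranged from 61.9 to 81.5 CPM in lean and 22.1 to 23.8 CPM in obese MHCII-low libraries. The lean and obese ranges were 71.8 to 89.9 and 27.5 to 28.2 CPM in CD11c-negative libraries, and 28.7 to 33.1 and 24.7 to 27.3 CPM in monocyte-derived libraries. Each obese range lies below the lean range of its population, and the adipocyte genes were called lower at 11, 7 and 3 of 13. Of all tested genes 13.8%, 15.6% and 9.76% were called lower. T and NK cell markers were likewise lower in obese libraries, at 13.4 to 25.3 against 4.25 to 7.11 CPM, 12.9 to 17.6 against 4.57 to 5.18 CPM, and 26.1 to 65.3 against 15.1 to 19.0 CPM in the same order of populations. Dendritic cell markers were 221 to 251 CPM in lean and 154 to 170 CPM in obese MHCII-low libraries, and 219 to 234 against 144 to 172 CPM in CD11c-negative libraries. Neutrophil markers were 53.8 to 80.8 against 39.4 to 50.6 CPM and 59.3 to 77.7 against 41.6 to 54.1 CPM in these, and 16.2 to 22.3 against 28.1 to 42.9 CPM in monocyte-derived libraries. Mesothelial markers (39.7 to 67.9 against 11.6 to 24.5 CPM, MHCII-low), B cell markers (169 to 184 against 131 to 158 CPM, CD11c-negative) and fibroblast markers (514 to 656 against 903 to 2180 CPM, monocyte-derived) also did not overlap. Brown adipocyte markers were at most 8.0 CPM in any library. Olfactory and vomeronasal receptor genes, which none of these cells is known to need, summed to 141 to 213 CPM in lean and 30.3 to 47.9 CPM in obese MHCII-low libraries, 62.2 to 126 against 25.5 to 30.1 CPM in CD11c-negative libraries and 295 to 1100 against 73.7 to 163 CPM in monocyte-derived libraries. The part of these differences in the diet results below was not tested.

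Obesity went with a broad rise of the oxidation genes in both macrophage populations that were sorted from lean and obese mice. In MHCII-low macrophages 24 of 33 members were called higher and 1 (Acadvl) lower, at a Benjamini-Hochberg adjusted p under 0.05 in edgeR's quasi-likelihood test over all tested genes. That is 72.7% and 3.03% of the members, where 16.8% of all tested genes were called higher and 13.8% lower. In CD11c-negative macrophages 22 were called higher and 1 (again Acadvl) lower, or 66.7% and 3.03%, against 16.8% and 15.6% of all tested genes. Among the 8205 genes with a mean of at least 10 CPM the shares called higher were 34% and 32.4%. Since the members were chosen with earlier results of these data known, these shares describe the list and do not test it. The median log2 change of the members was 0.66 in MHCII-low and 0.55 in CD11c-negative macrophages, where the median over the 8205 genes was 0.21 and 0.17 and that over all tested genes -0.07 and -0.10. In CD11c-negative macrophages the 23 calls became 14 without lean replicate 3, 15 without obese replicate 2 and 13 without replicate 2 of every obese group. Under upper quartile scaling, which moved the median over all genes to -0.28 and -0.25, the split of members was 19 higher and 1 lower, and 14 higher and 2 lower (Acadvl and Acat1). In bulk RNA, a change in the share of cells that express a gene and a change in RNA per cell cannot be told apart.

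**Figure D1:**
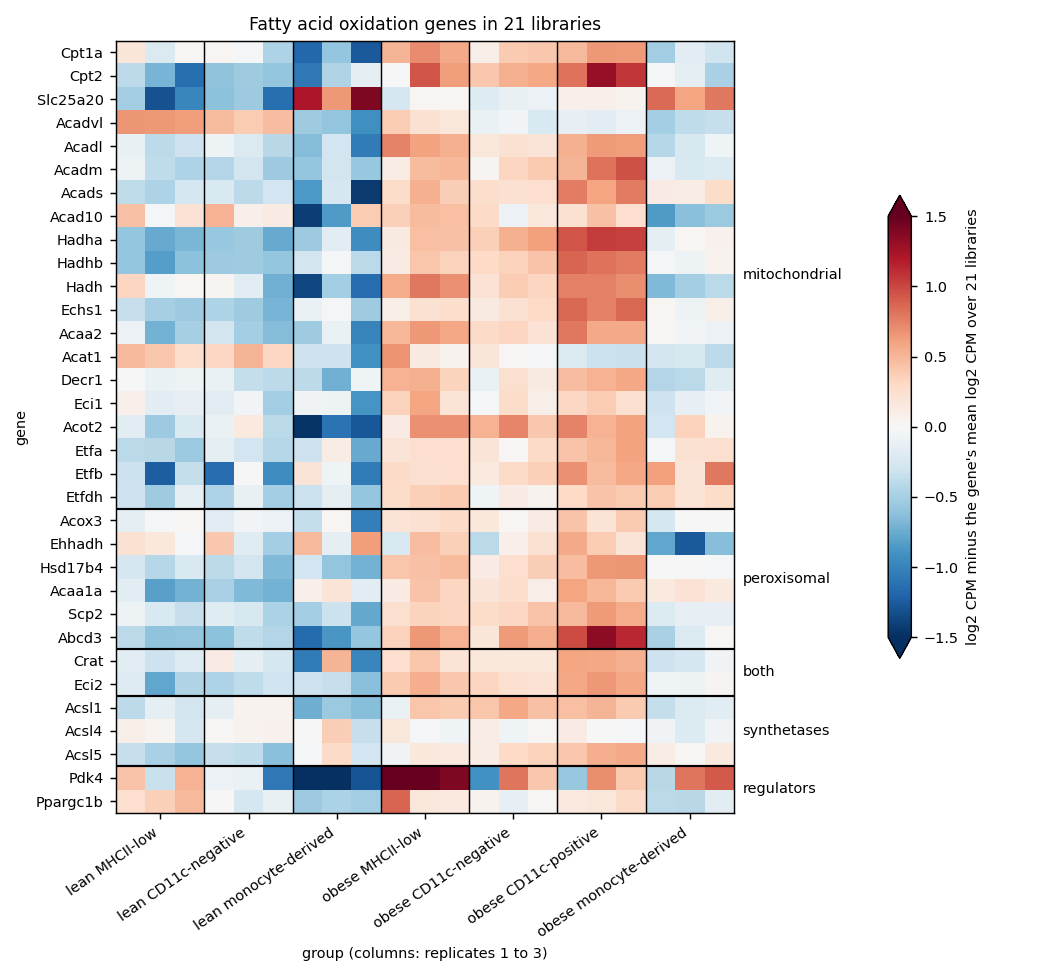
Each row is a member, ordered by role, and each column is a library, grouped by diet and population. Colour gives log2 CPM minus the mean log2 CPM of the member over all 21 libraries, red above and blue below it, with the scale ending at -1.5 and 1.5. The obese macrophage columns are higher for most mitochondrial and peroxisomal rows, with Acadvl as the member called lower.

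**Figure D2:**
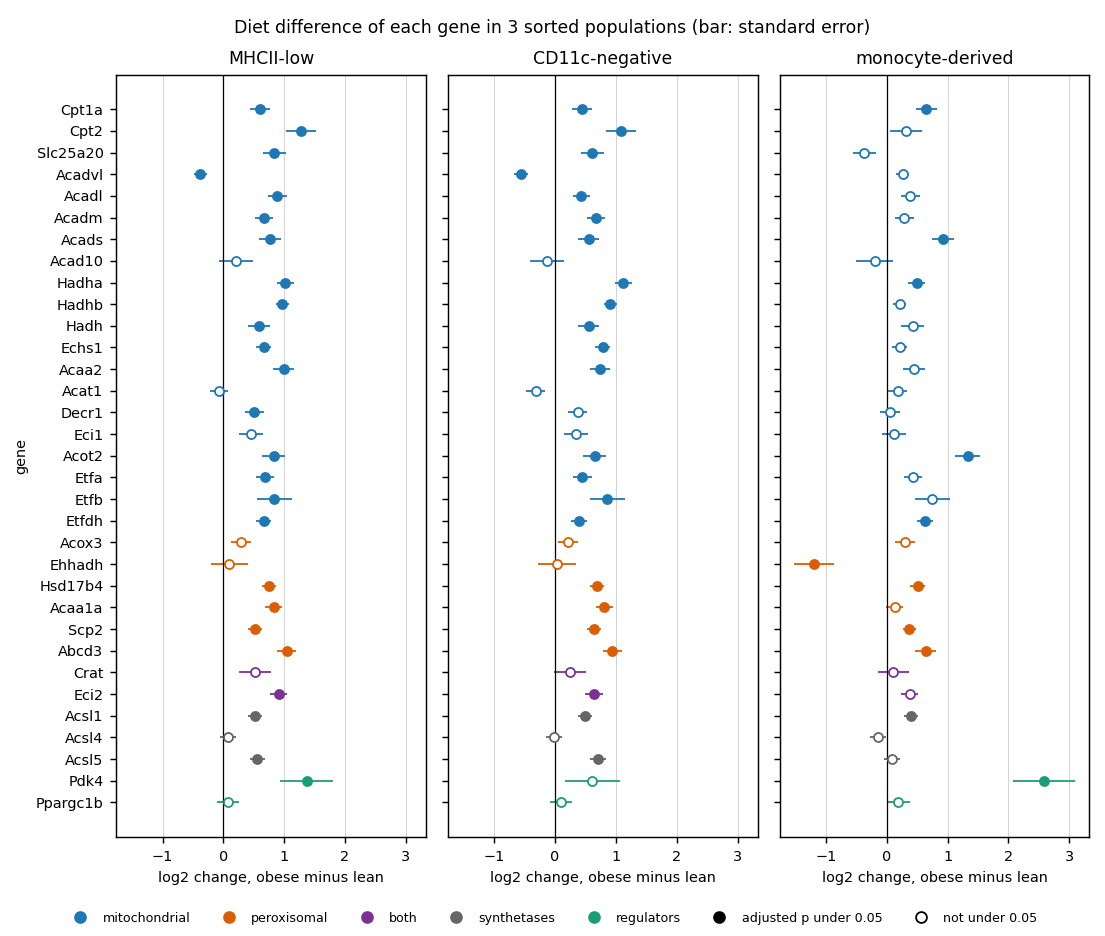
Points give the log2 change from lean to obese for each member in the 3 populations sorted from both diets, with SE bars and filled points where the adjusted p is under 0.05. Most called members lie to the right of zero in the macrophage populations, and fewer are called in monocyte-derived cells.

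Transcripts of all 3 members that act in the import of fatty acids into mitochondria rose in both macrophage populations. Cpt1a, the outer-membrane carnitine palmitoyltransferase that controls entry, stood at 217, 164 and 194 CPM in lean and 272, 313 and 284 CPM in obese MHCII-low libraries. These libraries did not overlap, and the log2 change was 0.60 (SE 0.17, adjusted p 0.0109), against 0.44 (SE 0.16, adjusted p 0.0467) in CD11c-negative macrophages. Cpt2, which reforms acyl-CoA inside, rose by 1.28 and 1.08 (adjusted p 0.000921 and 0.00253). Its levels were low, with means of 3.12 CPM in lean and 7.6 CPM in obese MHCII-low libraries, and 3.42 and 7.25 CPM in CD11c-negative libraries. Slc25a20, the carrier that exchanges acylcarnitine for carnitine across the inner membrane, rose by 0.84 and 0.61 (adjusted p 0.00295 and 0.019). Of 15 alternatives, 4 lost the Cpt1a call in MHCII-low and 10, with DESeq2 among them, that in CD11c-negative macrophages, and 3 lost Slc25a20 there; Cpt2 was kept under all.

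The acyl-CoA dehydrogenases, which take the first electrons from fatty acyl chains of different lengths, did not move as a block. Acadl (long-chain) rose by 0.89 and 0.43 on the log2 scale in MHCII-low and CD11c-negative macrophages, Acadm (medium-chain) by 0.67 in each, and Acads (short-chain) by 0.76 and 0.55. Their adjusted p ran from 0.000168 to 0.029, and in CD11c-negative macrophages 7 of 15 alternatives lost the Acadl call and 8 the Acads call. Acad10, a low family member, changed by 0.20 and -0.13 and was not called (adjusted p 0.612 and 0.754). Acadvl, the very long-chain enzyme of the inner membrane, went the other way. It stood at 46.6, 46.2 and 45.4 CPM in lean and 38.5, 34.5 and 33.1 CPM in obese MHCII-low libraries, and at 40.9, 38.4 and 40.7 CPM in lean and 27.6, 28.6 and 25.1 CPM in obese CD11c-negative libraries. Every obese value lay below every lean value of the same population. The log2 changes were -0.38 (SE 0.11, adjusted p 0.0113) and -0.56 (SE 0.11, adjusted p 0.000548). The fall in CD11c-negative macrophages was called under all 15 alternatives tried, while that in MHCII-low macrophages was lost under 6 of 15.

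A neighbour moved with Acadvl. Dvl2, a signalling gene on the other strand, overlaps Acadvl exons and changed by -0.99 (SE 0.19, adjusted p 0.000827) in MHCII-low macrophages, -1.23 (adjusted p 9.55e-05) in CD11c-negative macrophages and 0.63 (adjusted p 0.0332) in monocyte-derived cells. The strand setting of the counting is unknown here (not given in the sources), and reads from the shared stretch cannot be told apart, and the part of Dvl2 in the Acadvl values was not tested. In all, 10 members overlap an opposite-strand gene and 1 (Etfb) a same-strand gene. For Acsl5 the overlapping gene Zdhhc6 also rose, by 0.96 and 0.98 in the macrophage populations. Paox, which overlaps Echs1, changed by -0.08 and fell by 0.70, against the rise of Echs1. Myd88, which overlaps Acaa1a, changed by -0.14 and -0.11 and was not called.

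Of the trifunctional protein and the steps after it, all but Acat1 were called higher in both macrophage populations. Hadha, its alpha subunit with hydratase and dehydrogenase activity, stood at 74.6, 66.4 and 69.5 CPM in lean and 123, 153 and 152 CPM in obese MHCII-low libraries. In CD11c-negative macrophages it stood at 75.6, 77 and 65.9 CPM in lean and 143, 162 and 171 CPM in obese libraries. The lean and obese values did not overlap in either population, and the folds were 2.03 (log2 1.02, SE 0.14, adjusted p 3.97e-05) and 2.18 (log2 1.12, SE 0.14, adjusted p 1.3e-05). Hadhb, its thiolase subunit, stood at 30.2, 25.5 and 29.4 CPM in lean and 49.1, 60.3 and 57.3 CPM in obese MHCII-low libraries, and at 31.0, 31.3 and 30.3 CPM in lean and 55.7, 57.6 and 61.0 CPM in obese CD11c-negative libraries. These groups did not overlap either, with folds of 1.96 (adjusted p 3.16e-06) and 1.88 (adjusted p 5.76e-06). Acaa2, a mitochondrial thiolase, rose from 21.4, 14 and 16.1 CPM to 32.3, 35.9 and 34.0 CPM in MHCII-low libraries (log2 0.99, SE 0.17, adjusted p 0.000345) and by 0.74 in CD11c-negative macrophages. Hadh, the short-chain hydroxyacyl-CoA dehydrogenase, rose by 0.58 and 0.55, a call lost under 6 and 7 of 15 alternatives, and Echs1, the short-chain enoyl-CoA hydratase, by 0.66 and 0.78. Acat1, which interconverts acetyl-CoA and acetoacetyl-CoA, changed by -0.07 and -0.32 and was not called.

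Sequence upstream of the members the mitochondrial results turn on is shown 5′ to 3′, credited to RefSeq promoter windows on GRCm38.p6, cut so that no transcribed base is included. Capitals mark matches, on either strand, to AGGTCA (the half-site letters of nuclear receptors), GGGCGG (a GC box) or CCAAT. Hadha and Hadhb, which moved together, lie head to head. The 85 bases between their gene bounds in GENCODE M21 (chr5:30155163-30155247, plus strand) are their shared upstream stretch. Their RefSeq starts lie outside this gap, at 30154980 (Hadha) and 30155253 (Hadhb). Acadm and Acadvl both hold AGGTCA letters, and moved in opposite directions in the macrophages. Pdk4 is shown for its rise in MHCII-low and monocyte-derived cells.
Hadha-Hadhb gap: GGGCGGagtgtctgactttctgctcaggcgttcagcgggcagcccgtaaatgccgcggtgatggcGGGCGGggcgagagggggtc
Acadm, chr3:153944644-153944893, minus strand: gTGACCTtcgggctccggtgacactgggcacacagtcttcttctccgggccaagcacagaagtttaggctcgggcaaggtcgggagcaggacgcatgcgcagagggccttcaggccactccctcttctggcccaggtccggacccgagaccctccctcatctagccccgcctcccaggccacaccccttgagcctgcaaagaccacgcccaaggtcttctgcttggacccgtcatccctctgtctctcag
Acadvl, chr11:70015429-70015678, minus strand: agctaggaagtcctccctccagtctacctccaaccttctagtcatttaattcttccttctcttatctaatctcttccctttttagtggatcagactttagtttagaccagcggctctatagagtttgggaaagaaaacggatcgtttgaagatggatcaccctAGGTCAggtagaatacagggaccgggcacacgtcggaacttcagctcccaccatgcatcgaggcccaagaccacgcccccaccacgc
Pdk4, chr6:5496310-5496528, minus strand: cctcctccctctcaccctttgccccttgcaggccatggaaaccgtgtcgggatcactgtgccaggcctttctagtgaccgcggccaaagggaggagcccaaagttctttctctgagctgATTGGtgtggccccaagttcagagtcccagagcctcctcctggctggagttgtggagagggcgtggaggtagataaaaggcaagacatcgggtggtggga
Windows of 300 bases around the start were matched for 27 of 33 members. AGGTCA was in 5 of the 27 (Acadm, Acadvl, Cpt1a, Echs1 and Scp2), where 16.3% of all 32851 windows held it. A direct repeat of AGGTCA with 1 base between its copies was in 0 of the 27 and in 0.0396% of all windows. GGGCGG was in 19 of 27 against 35.7% of windows, CCAAT in 12 against 37.4%, TATAAA in 0 against 13.6% and CACGTG in 0 against 7.15%. A member was counted if any of its windows held the letters, and 2 members had 2 windows, whereas the shares are per window. Each motif was searched on both strands, and a match or its lack describes letters only.

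Helper enzymes moved less uniformly. Decr1, the dienoyl-CoA reductase for polyunsaturated chains, rose by 0.51 in MHCII-low macrophages (adjusted p 0.0175) and changed by 0.37 in CD11c-negative macrophages (adjusted p 0.0725). Eci1, an enoyl-CoA isomerase, changed by 0.45 and 0.34 and was not called. Acot2, which splits acyl-CoA to free acid in the matrix, rose by 0.83 and 0.65. The electron transfer flavoprotein subunits Etfa and Etfb, which take electrons from the dehydrogenases, rose by 0.69 and 0.45 and by 0.84 and 0.86. Etfdh, which hands those electrons to ubiquinone, rose by 0.66 and 0.39. Of 15 alternatives, 9 lost Etfb in MHCII-low macrophages, and 6, 7 and 9 lost Etfb, Etfa and Etfdh in CD11c-negative macrophages, while 6 lost Decr1 in MHCII-low and 3 Acot2 in CD11c-negative macrophages. In total, 16 of 20 mitochondrial members were called higher in MHCII-low and 15 of 20 in CD11c-negative macrophages, with Acadvl called lower in each.

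Peroxisomal members rose at 4 of 6 in each macrophage population, and the same 4 were called in both: Hsd17b4, Acaa1a, Scp2 and Abcd3. Abcd3, a transporter that brings acyl-CoA into the peroxisome, stood at 13.6, 11.7 and 11.8 CPM in lean and 22.7, 28.0 and 25.7 CPM in obese MHCII-low libraries, and at 11.6, 13.7 and 13.2 CPM in lean and 20.2, 27.7 and 26.0 CPM in obese CD11c-negative libraries. The groups did not overlap, with folds of 2.06 (adjusted p 0.000119) and 1.92 (adjusted p 0.000234). Acaa1a, a peroxisomal thiolase, stood at 26.8, 17.1 and 18.4 CPM in lean and 32.7, 40.3 and 37.7 CPM in obese MHCII-low libraries, and at 21.4, 19.0 and 18.4 CPM in lean and 34.4, 36.1 and 32.3 CPM in obese CD11c-negative libraries. Again no lean value reached an obese one, and the log2 changes were 0.83 and 0.81 (SE 0.14 each, adjusted p 0.000305 and 0.000307). Acaa1a has a close paralog, Acaa1b, so its counts depend on how shared reads were handled.

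Hsd17b4, the multifunctional enzyme for branched and very long chains, stood at 60.4, 53.3 and 61.4 CPM in lean and 96.4, 97.3 and 100 CPM in obese MHCII-low libraries. In CD11c-negative macrophages its values were 54.5, 59.6 and 45.3 CPM in lean and 78.6, 85.7 and 93.1 CPM in obese libraries. Both pairs of groups were separate, with log2 changes of 0.75 and 0.69 (SE 0.12 each, adjusted p 0.000121 and 0.000204). Scp2, whose long form is the thiolase for branched chains, stood at 58.3, 52.5 and 48.5 CPM against 73.0, 77.6 and 77.2 CPM in MHCII-low libraries, and at 54.3, 52.0 and 44.3 CPM against 74.7, 76.6 and 83.0 CPM in CD11c-negative libraries, lean before obese. It too was separate by diet, with log2 changes of 0.52 and 0.64 (SE 0.11 each, adjusted p 0.00208 and 0.000277).

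The other 2 peroxisomal members were not called in either macrophage population. Acox3, an oxidase for branched chains, stood at 72.5, 78.6 and 80.8 CPM in lean and 92.3, 93.5 and 97.8 CPM in obese MHCII-low libraries, and at 70.7, 77.9 and 74.9 CPM in lean and 89.4, 81.7 and 87.0 CPM in obese CD11c-negative libraries. Its groups did not overlap, but the changes of 0.29 and 0.21 (SE 0.16 each) had an adjusted p of 0.174 and 0.332. Ehhadh, the bifunctional enzyme of straight chains, was near the bottom of the range, at 1.69, 1.60 and 1.42 CPM in lean and 1.23, 1.99 and 1.84 CPM in obese MHCII-low libraries. In CD11c-negative macrophages it stood at 1.90, 1.27 and 1.01 CPM in lean and 1.09, 1.52 and 1.68 CPM in obese libraries. These values overlapped, with changes of 0.10 and 0.03 (adjusted p 0.824 and 0.955).

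Of the members found in both compartments, Eci2, an enoyl-CoA isomerase, rose by 0.91 and 0.64 (adjusted p 9.25e-05 and 0.00156), while Crat, the carnitine acetyltransferase, changed by 0.52 and 0.25 and was not called. The synthetases Acsl1 and Acsl5, which activate long-chain fatty acids, rose by 0.52 and 0.49 and by 0.56 and 0.71, with Acsl1 lost under 4 of 15 alternatives in MHCII-low and 1 in CD11c-negative macrophages. Acsl4, which prefers arachidonic acid, changed by 0.07 and -0.02. Pdk4, the kinase that inhibits pyruvate dehydrogenase and spares glucose, stood at 11.9, 7.04 and 12.7 CPM in lean and 25.1, 33.7 and 23.4 CPM in obese MHCII-low libraries. The groups did not overlap, with a log2 change of 1.37 (SE 0.44, adjusted p 0.0266) that was lost under 7 of 15 alternatives. In CD11c-negative macrophages Pdk4 stood at 8.35, 8.27 and 4.21 CPM in lean and 4.73, 15.5 and 11.7 CPM in obese libraries, which overlap (0.61, SE 0.45, adjusted p 0.306). Ppargc1b, a coactivator of mitochondrial genes, changed by 0.07 and 0.10.

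Per kb of all annotated exons of a gene merged, lean MHCII-low macrophages held most of Acsl4 (25.8), Cpt1a (25.1) and Acadl (20.6 CPM per kb). They held least of Ehhadh (0.527 CPM per kb) and Acad10 (0.620 CPM per kb). The merged length is not that of 1 transcript, and the order depends on it. It was 8730 bases for Hadha and 2005 for Acadl. By CPM alone Cpt1a (192), Acsl4 (140), Acox3 (77.3) and Hadha (70.2) were highest. Summed over mitochondrial members, lean MHCII-low macrophages held 582 CPM and obese ones 910 CPM, and CD11c-negative macrophages 562 and 810 CPM. The sum over peroxisomal members was 223 and 333 CPM, and 211 and 310 CPM.

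In monocyte-derived cells fewer members passed the test. Diet called 10 of 33 higher and 1 lower, or 30.3% and 3.03%, against 7.44% and 9.76% of all tested genes and against 17% called higher among the 8205 genes with a mean of at least 10 CPM. The members' median log2 change was 0.32, where that of the 8205 genes was 0.17 and that of all tested genes -0.05. The 10 were Cpt1a, Acads, Hadha, Acot2, Etfdh, Hsd17b4, Scp2, Abcd3, Acsl1 and Pdk4, and the 1 lower was Ehhadh. This count rested on single libraries. It was 6 in all without lean monocyte-derived replicate 3, the library of lowest depth, 23 without lean monocyte-derived replicate 2, 6 without replicate 2 of every obese group, 9 without obese replicate 3, 14 and 15 without obese replicates 1 and 2, and 0 when only these 6 libraries were fitted. Lean replicate 2 also stood apart from lean replicates 1 and 3 in its summed markers. Macrophage markers were 8830 CPM against 3790 and 2880 CPM, and dendritic markers 434 CPM against 1440 and 1010 CPM. T and NK cell markers were 65.3 CPM against 28.9 and 26.1 CPM. The part of this in the count was not tested. Upper quartile scaling gave 6 higher and 2 lower (Ehhadh and Slc25a20), with the median over all genes at -0.23.

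Pdk4 showed the most marked rise there, from 1.33, 1.79 and 3.60 CPM in lean to 6.63, 15.5 and 16.8 CPM in obese libraries. No value was shared by the groups, and the fold was 6.02 (log2 2.59, SE 0.51, adjusted p 0.00383). Acot2 stood at 3.58, 4.59 and 4.12 CPM in lean and 8.15, 12.6 and 10.3 CPM in obese libraries, a separate pair of groups with a fold of 2.52 (adjusted p 0.000239). Acads stood at 7.91, 12.1 and 5.32 CPM in lean and 15.7, 15.6 and 17.5 CPM in obese libraries, and Cpt1a at 84.9, 128 and 80.1 CPM in lean and 133, 172 and 156 CPM in obese libraries. Neither overlapped, with log2 changes of 0.92 (adjusted p 0.00286) and 0.65 (adjusted p 0.0127).

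The peroxisomal members of monocyte-derived cells split 3 higher and 1 lower. Hsd17b4 stood at 59.0, 47.8 and 44.1 CPM in lean and 71.8, 72.2 and 70.9 CPM in obese libraries, Scp2 at 43.3, 49.4 and 36.3 CPM against 53.3, 56.8 and 56.8 CPM, and Abcd3 at 8.03, 9.71 and 11.9 CPM against 12.7, 15.3 and 18.1 CPM. All 3 were separate by diet, with changes of 0.51, 0.37 and 0.64 (adjusted p 0.00807, 0.0298 and 0.0144). Ehhadh went down, from 2.02, 1.30 and 2.23 CPM to 0.838, 0.600 and 0.927 CPM, without overlap (log2 -1.20, SE 0.33, adjusted p 0.0186), a call lost under 7 alternatives. Acaa1a stood at 31.7, 34.5 and 26.8 CPM in lean and 33.3, 34.9 and 33.3 CPM in obese libraries, and Acox3 at 62.2, 81.4 and 39.1 CPM against 66.5, 80.1 and 79.7 CPM. Their groups overlapped, and neither was called (0.13 and 0.30, adjusted p 0.567 and 0.192).

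Whether the diet changes differ between populations was tested as a difference of differences. Between CD11c-negative and MHCII-low macrophages 0 of 33 members were called, and 0% of all tested genes in either direction. At an unadjusted p under 0.05 there was 1 member, Acadl, and 634 genes in all, and DESeq2 called 0 members. Between monocyte-derived cells and CD11c-negative macrophages the change differed for 5 members, 1 higher and 4 lower, against 3.85% and 2.51% of all tested genes. Acadvl was the 1 higher, at 0.82 (SE 0.15, adjusted p 0.00311): it fell in CD11c-negative macrophages, while monocyte-derived cells had 20.3, 19.6 and 15.6 CPM in lean and 20.7, 22.7 and 23.2 CPM in obese libraries. The difference was lower for Hadhb (-0.70, SE 0.15, adjusted p 0.00943), Slc25a20 (-0.98, SE 0.27, adjusted p 0.0315), Acaa1a (-0.68, SE 0.20, adjusted p 0.0476) and Acsl5 (-0.62, SE 0.18, adjusted p 0.041). Hadhb in monocyte-derived cells stood at 37.4, 44.6 and 34.2 CPM in lean and 44.4, 42.9 and 47.0 CPM in obese libraries, which overlap. Slc25a20 stood at 47.6, 32.1 and 53.8 CPM in lean and 36.8, 30.7 and 35.4 CPM in obese libraries, also overlapping. Of these 5 calls, 1 (Acadvl) was kept under every alternative, and leaving out 1 library gave 6 calls without lean monocyte-derived replicate 2 or 3 and 1 or 2 calls without any of the other 10 libraries. With a replicate block 8 members were called by the number in the descriptions and 5 by that in the titles.

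**Figure D3:**
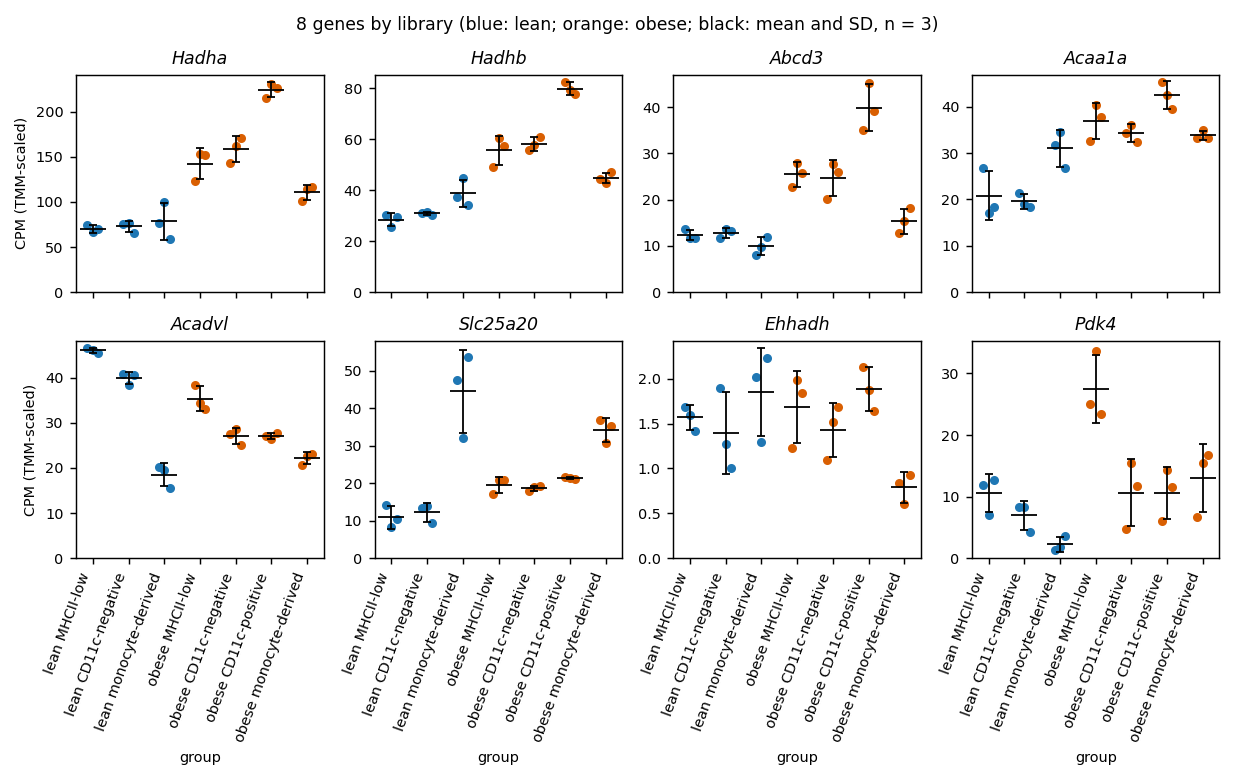
Each panel is a member, with CPM on the vertical axis from 0 and the 7 groups on the horizontal axis, blue (lean) and orange (obese) points for libraries, and a black mark with whiskers for the mean and SD (n = 3). Hadha, Hadhb, Abcd3 and Acaa1a are higher in obese than lean macrophages, Acadvl is lower, Slc25a20 is highest in lean monocyte-derived cells, Ehhadh is near the bottom of the range and Pdk4 is highest in obese MHCII-low macrophages.

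The median log2 change of the 20 mitochondrial members was 0.68 in MHCII-low, 0.55 in CD11c-negative and 0.35 in monocyte-derived cells. That of the 6 peroxisomal members was 0.63, 0.66 and 0.34. The difference of the medians, mitochondrial minus peroxisomal, was 0.05, -0.12 and 0.02, and leaving out 1 library at a time gave 0.04 to 0.10, -0.16 to -0.07 and -0.05 to 0.09. Lean and obese libraries did not overlap for 28 of 33 members (84.8%) in MHCII-low, 27 (81.8%) in CD11c-negative and 16 (48.5%) in monocyte-derived cells, against 61.2%, 65.4% and 30.5% of the 8205 genes with a mean of at least 10 CPM and 49.4%, 51.2% and 26.9% of all tested genes. These were 18 of 20 mitochondrial and 5 of 6 peroxisomal members in MHCII-low macrophages, the same counts in CD11c-negative macrophages, and 8 of 20 and 4 of 6 in monocyte-derived cells. As a description, the mean log2 level of each set was taken relative to lean MHCII-low macrophages. It was 0.65 and 0.59 (mitochondrial and peroxisomal) in obese MHCII-low, 0.48 and 0.47 in obese CD11c-negative and 0.80 and 0.84 in obese CD11c-positive macrophages. In monocyte-derived cells it was -0.22 and -0.08 in lean and 0.19 and 0.07 in obese libraries. The mitochondrial minus peroxisomal level went from 0 to 0.06 with diet in MHCII-low macrophages and from 0.06 to 0.01 in CD11c-negative macrophages, where the pooled SD between libraries of a group was 0.07. In monocyte-derived cells it stood at -0.22, 0.01 and -0.20 in lean and 0.14, 0.15 and 0.09 in obese libraries, which do not overlap, with group means of -0.14 and 0.13. There the set means of the mitochondrial members thus moved more with diet than those of the peroxisomal members, although the medians of the fitted changes were close. The peroxisomal mean is over 6 members, of which 5 changed upwards. The other, Ehhadh, changed by -1.20 at low group means of 1.85 CPM in lean and 0.789 CPM in obese libraries. The part of this 1 member in the difference of the set means was not tested.

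**Figure D4:**
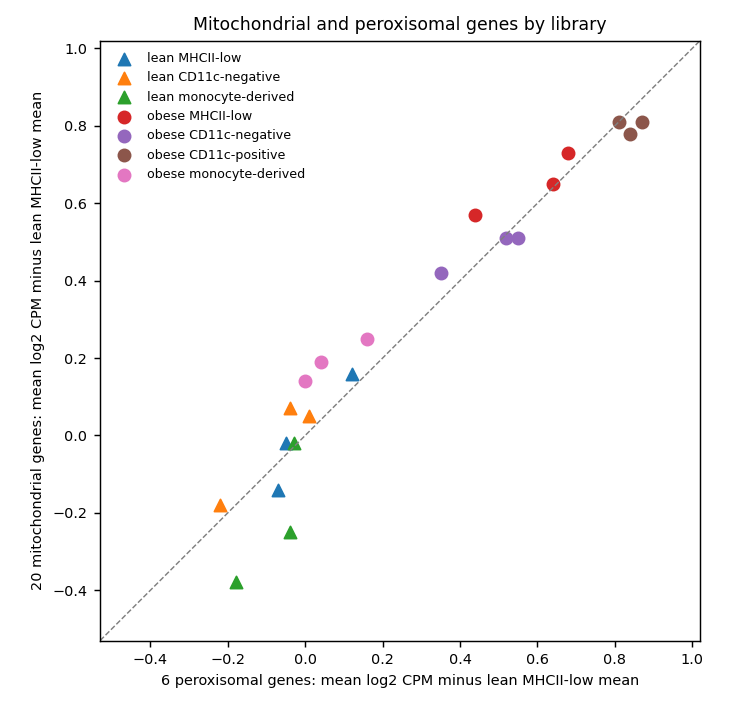
Each point is a library, coloured by group (triangles lean, circles obese), with the mean log2 CPM of the 6 peroxisomal members on the horizontal and of the 20 mitochondrial members on the vertical axis, both minus the lean MHCII-low mean, and a dashed line where they are equal. Both sets are higher in obese macrophages and highest in obese CD11c-positive macrophages. By group mean, monocyte-derived cells lie farthest from the line, at -0.14 (lean) and 0.13 (obese), while their lean replicate 2 lies at 0.01.

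Among obese populations, CD11c-positive macrophages had the highest levels of many members. Against CD11c-negative macrophages 3 were called higher and 0 lower, where 1.38% and 2.11% of all tested genes were called. The 3 were Abcd3 (0.69, SE 0.16, adjusted p 0.0196), Echs1 (0.60, SE 0.13, adjusted p 0.0128) and Hadhb (0.46, SE 0.11, adjusted p 0.0213). Abcd3 stood at 35.1, 45.2 and 39.2 CPM and Hadhb at 82.5, 79.3 and 77.7 CPM in CD11c-positive libraries, each above every CD11c-negative library. Hadha, at 215, 231 and 227 CPM, was also above them without being called (0.50, SE 0.14, adjusted p 0.0562). Of the other peroxisomal members, Hsd17b4 stood at 99.3, 113 and 114 CPM, Scp2 at 86.0, 95.7 and 90.9 CPM, Acaa1a at 45.4, 42.6 and 39.5 CPM, Acox3 at 107, 91.9 and 105 CPM and Ehhadh at 2.13, 1.88 and 1.64 CPM. In all, 25 of 33 members (75.8%) did not overlap between these groups, as did 49.8% of the 8205 genes with a mean of at least 10 CPM and 34.5% of all tested genes. Markers of other cell types differed between the same libraries: endothelial genes summed to 153 to 213 CPM in CD11c-positive and 80.6 to 143 CPM in CD11c-negative libraries, B cell genes to 72.1 to 88.2 and 131 to 158 CPM, neutrophil genes to at most 29.7 and at least 41.6 CPM, and dendritic genes to 121 to 137 and 144 to 172 CPM. Their part in the result was not tested. The number called moved with the fit: with a replicate block it was 8 by the number in the descriptions (Abcd3, Acadl, Acadm, Echs1, Etfdh, Hadha, Hadhb and Hsd17b4) and 5 by that in the titles, 0 or 1 when any single library of the 6 was left out, and with only these 6 libraries fitted 18, of which 17 were higher.

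Obese CD11c-negative and MHCII-low macrophages differed at 0 members in edgeR's test, against 1.19% and 1.85% of all genes called higher and lower. At an unadjusted p under 0.05 there were 6 members, DESeq2 called 3 lower, and a replicate block called 3 by the number in the descriptions (Acadl, Acadvl and Pdk4) and 0 by that in the titles. In lean mice the same comparison called 0 members against 1.05% and 0.253% of all genes. Without adjustment, 2 members and 2336 genes in all had a p under 0.05 in edgeR's test. DESeq2 called 0 members, and 394 genes higher and 199 lower in all.

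The comparisons of monocyte-derived cells with CD11c-negative macrophages use the same libraries as the diet comparisons above. In obese mice 1 member was called higher and 11 lower (33.3%), against 11% and 12.8% of all tested genes and 11.9% and 24.5% of the 8205 genes with a mean of at least 10 CPM. Slc25a20 was the 1 higher (0.88, SE 0.19, adjusted p 0.00146). The 11 lower were Cpt1a, Cpt2, Acadl, Acadm, Hadha, Hadhb, Hadh, Decr1, Scp2, Abcd3 and Acsl1. The 12 calls became 4 without obese CD11c-negative replicate 3, 5 without its replicate 2, 5 without monocyte-derived replicate 1, 7 without its replicate 2 and 4 without replicate 2 of every obese group. Other fits called more members. There were 1 higher and 16 lower with the description number as a replicate block. DESeq2 gave 1 higher and 14 lower, and the compared libraries alone gave 2 higher and 14 lower. In lean mice 5 were called higher and 8 lower (15.2% and 24.2%), against 23.6% and 20.1% of all genes and 23.4% and 34.5% of the 8205, so the members were not called more often than other genes. Slc25a20 rose by 1.86 (SE 0.19, adjusted p 1.46e-07), a fold of 3.63, with Acaa1a, Acsl5, Echs1 and Hadhb higher by 0.66, 0.46, 0.36 and 0.33. Acadvl changed by -1.11 (SE 0.11, adjusted p 7.32e-08) and Pdk4 by -1.70 (SE 0.51, adjusted p 0.0131). The other 6 lower were Cpt1a, Acadl, Hadh, Acat1, Acot2 and Acsl1. Beside the macrophage markers given above, dendritic genes summed to 434 to 1440 CPM in lean and 481 to 945 CPM in obese monocyte-derived libraries, against 219 to 234 and 144 to 172 CPM in CD11c-negative libraries, and the part of either list in the result was not tested.

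Other genes of the pathway, listed by function, give the setting of the members. Of all tested genes, 16.8%, 16.8% and 7.44% were called higher in MHCII-low, CD11c-negative and monocyte-derived cells, and 13.8%, 15.6% and 9.76% lower. Of the 8205 genes with a mean of at least 10 CPM, 34%, 32.4% and 17% were called higher and 9.46%, 14.9% and 3.71% lower. Genes of lipid uptake and activation were called higher at 6 of 13 in MHCII-low, 6 in CD11c-negative and 4 in monocyte-derived cells, with 1, 0 and 1 called lower. Lpl, which frees fatty acids from lipoproteins, rose by 3.01, 2.79 and 1.35, and Slc27a1, a fatty acid transporter, by 1.55, 1.88 and 1.94. Among 20 genes of PPAR-type regulation 4 were higher and 3 lower in MHCII-low macrophages, 4 and 4 in CD11c-negative macrophages, and 4 and 5 in monocyte-derived cells. Pparg, a nuclear receptor of lipid handling, rose by 1.65, 1.15 and 1.12, and Nr1h3, the oxysterol receptor LXR alpha, by 2.02, 2.52 and 2.14. Ppard, another receptor of fatty acids, fell by 0.68 and 0.89 in the macrophages and changed by -0.31 in monocyte-derived cells without being called.

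Further peroxisomal enzymes, 32 in number, were called higher at 12, 10 and 4 and lower at 2, 3 and 2 in MHCII-low, CD11c-negative and monocyte-derived cells. Their shares called higher in the macrophages were near those of the 8205 genes (34% and 32.4%). Cat, the peroxisomal catalase, rose by 1.60 and 1.01 in the macrophages, and Ech1, a dienoyl-CoA isomerase, by 0.95, 1.11 and 0.68 in the 3 populations. Peroxisome biogenesis (19 genes) gave 4 higher and 2 lower, 6 and 2, and 2 and 1. Pex2, a membrane ubiquitin ligase subunit, rose by 0.63 and 0.71 in the macrophages.

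The remaining lists are mainly mitochondrial. Further mitochondrial oxidation genes (29 tested) were called higher at 6, 5 and 0 and lower at 0, 1 and 3. In the macrophages their shares called higher were near that of all tested genes (16.8% in each population). Those shares were below the shares of the 8205 genes (34% and 32.4%). A mixed list of malonyl-CoA and pyruvate genes was called higher at 3, 4 and 2 of 12 and lower at 0, 0 and 1. Its calls in both macrophage populations included the pyruvate genes Pdk1 and Mpc2 and the malonyl-CoA gene Mlycd. Ketone body genes were called higher at 2, 0 and 0 of 6. Respiratory chain genes were called higher at 26 of 29 in each macrophage population (median 0.66 and 0.74) and at 1 of 29 in monocyte-derived cells. Citric acid cycle genes were called higher at 11 of 16 in each macrophage population and 1 of 16 in monocyte-derived cells, with 0 called lower in any. Whether these shares differ from that of the 33 members was not tested.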

How the data were processed

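RNA-seq was made from 21 libraries in 7 groups of 3. The deposited values are raw counts of reads per gene, made by the authors on GRCm38. The tools were featureCounts (Subread 1.4.6-p5) for counting, STAR 2.6.0a, Trim Galore 0.4.5 and bcl2fastq, per the submitters' processing notes. No source used here states the strand setting or the annotation release. Symbols and gene bounds came from GENCODE M21, and promoter windows from RefSeq. The members and the gene lists were chosen with earlier results of these data known, and the lists of overlapping genes after seeing the counts. Counts were filtered with filterByExpr and scaled by TMM, and edgeR 4.0.16 (R 4.3.3) was fitted to 7 group means with a robust quasi-likelihood model (14 residual degrees of freedom). Tests were 2-sided with Benjamini-Hochberg adjustment over the 22935 tested genes of each of 10 comparisons, and a gene was called at an adjusted p under 0.05. The fit was tested on simulated data. CPM are TMM-scaled (prior count 2 on the log2 scale). Marker sums are CPM of the library total. All 33 members were named in the order of their roles. Library values were given for the 4 called members of largest change with at least 10 CPM in each diet comparison and for every peroxisomal member. Those of Acadvl and Slc25a20 were given outside that rule. At most 4 called genes were eligible per other list. Some genes of these lists are not reported here by name. Obese libraries of equal number deviated together in 18 of 18 pairs (r 0.121 to 0.741), so those numbers were taken to pair samples. The main fit had no replicate block and did not use this pairing, which entered only the fits with a block. Lean numbers did not clearly pair (r 0.0661 to 0.489 over 7 pairs by description, 5 of them over 0.1, and -0.282 to 0.489 over 9 by title). Obese numbers are the same in titles and descriptions, and the description block was fitted within each diet. Alternatives were other scalings, DESeq2 1.42.0, no filter, fits to the compared libraries, omission of libraries and replicate blocks. Counting error covers sampling of reads only, since PCR copies are not independent molecules.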

Additional observations from a re-analysis of the deposited data

Results flagged for a closer look

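For 5 members the diet change differed between monocyte-derived cells and CD11c-negative macrophages, by the test of the difference itself in edgeR. The difference in log2 change, monocyte-derived minus CD11c-negative, was 0.82 for Acadvl, -0.70 for Hadhb, -0.98 for Slc25a20, -0.68 for Acaa1a and -0.62 for Acsl5. Lean monocyte-derived libraries, which enter all 5, had a protein-coding share of counts from 67.1% to 82.5%, and the part of that spread in the differences was not tested.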

How the results depend on the processing

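Under the alternatives tried, 17 of 25 member calls for diet in MHCII-low macrophages were kept throughout, as were 13 of 23 in CD11c-negative macrophages and 0 of 11 in monocyte-derived cells. Leaving out replicate 2 of every obese group gave 13 member calls for diet in CD11c-negative macrophages and 6 in monocyte-derived cells, 0 between obese CD11c-positive and CD11c-negative macrophages, 4 between obese monocyte-derived cells and CD11c-negative macrophages, and 1 for the monocyte-derived difference in diet effect. Fits to the compared libraries alone gave 0 for diet in monocyte-derived cells, 1 between obese CD11c-negative and MHCII-low macrophages, 18 for obese CD11c-positive against CD11c-negative, 8 for lean monocyte-derived against CD11c-negative, and 2 for the monocyte-derived difference in diet effect. Between obese CD11c-negative and MHCII-low macrophages there was 1 call with DESeq2 size factors, library totals, upper quartile, protein-coding genes or no filter, and 3 with DESeq2. Obese CD11c-positive against CD11c-negative gave 5 with DESeq2 size factors, 11 with DESeq2 and 1 without the filter. Library totals gave 7 for obese monocyte-derived against CD11c-negative, and 3 for the difference in diet effect, which gave 8 with DESeq2 and 3 without the filter. With the description number as a replicate block there were 3 calls between obese CD11c-negative and MHCII-low, 8 for CD11c-positive, and 8 for the monocyte-derived difference, and with the title number block 5 for CD11c-positive. The causes were not tested.

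Leaving out 1 library at a time gave 18 to 24 calls for diet in MHCII-low, 14 to 20 in CD11c-negative (14 without lean replicate 3 and 15 without obese replicate 2) and 6 to 23 in monocyte-derived cells. It gave 0 to 1 for obese CD11c-positive, 4 to 9 for obese and 10 to 14 for lean monocyte-derived against CD11c-negative, 1 to 6 for the monocyte-derived difference, and 0 to 0 for the other comparisons. The mitochondrial minus peroxisomal median ran from 0.04 to 0.26 for that difference, from -0.05 to 0.09 for diet in monocyte-derived cells and from -0.05 to 0.17 for lean monocyte-derived against CD11c-negative. Crat, at -0.14 in the monocyte-derived difference, ran from -0.39 without lean monocyte-derived replicate 1 to 0.59 without replicate 2 (adjusted p 0.014). Under upper quartile scaling the median over all genes moved to -0.28, -0.25 and -0.23 in the diet comparisons, the share of calls that were higher from 55.0% to 30.7%, 51.8% to 36.4%, 43.3% to 20.9%, and 46.3% to 57.9% for obese monocyte-derived against CD11c-negative; for obese CD11c-positive the share was 39.6%, and 49.7%, 26.7% and 24.3% with DESeq2 size factors, library totals and upper quartile.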
